A study of Mus musculus with 8 samples.

Results

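Mouse embryonic fibroblasts that lack 2 subunits of the transcription factor NF-kB, RelA and cRel, were followed from 15 min to 45 and 60 min after tumour necrosis factor (TNF), to see which transcripts still moved without those subunits. The comparison set the 45 and 60 min knockout libraries together against the 15 min knockout library, which makes 3 of the 8 libraries of the series. It leaves the 0 min knockout library out of the contrast. Of 15049 genes tested, 12723 had at least 20 counts in the highest of the 3 libraries, and 9565 of those moved the same way at 45 and at 60 min, 4863 up and 4702 down. Both times were set against the same 15 min library, so a shared direction, seen in 75.2% of the genes with 20 counts, is no repeat measurement. Within these genes a quasi-likelihood test on the counts, adjusted over all genes tested, called 124: 72 higher and 52 lower.

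The cells were primary fibroblasts of C57BL/6 mouse embryos, either wild type (WT) or crel-/-rela-/- (KO). All were starved overnight in 0.5% bovine calf serum, then left without TNF (0 min) or given TNF at 10 ng/ml for 15, 45 or 60 min, with 1 library for each genotype and time. The sources used here do not say how many embryos gave each culture. No culture was left without TNF for 15, 45 or 60 min, so changes after TNF and changes with time or handling cannot be told apart. What was sequenced was chromatin-associated RNA, the fraction that is still bound to chromatin and is rich in transcripts being made, so levels follow recent transcription more closely than those of whole-cell RNA do.

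TNF acts through its receptor along several routes at once. One route frees NF-kB dimers, among them those with RelA or cRel, to enter the nucleus and switch on cytokine, adhesion and feedback genes. Another runs through MAP kinases, which act on serum response factor (SRF) with its partners, on CREB and on AP-1, and so switch on the immediate early genes (Fos, Egr and others) within minutes. Immediate early transcripts are known for a short burst followed by shut-off, and delayed genes, many of them encoding regulators that end the burst, follow.

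Because the genes that fell and those that rose could carry different promoter elements, upstream sequence is shown for a few of each. The windows are from RefSeq (GRCm38.p6), 5′ to 3′ on the gene's own strand, with the motif match in capitals. Upstream of genes that fell, the capitals mark CArG boxes, the element bound by SRF. The genes are Srf itself (chr17:46556183-46556282, minus strand), the gamma-actin gene Actg1 (chr11:120348546-120348645, minus), the zinc finger factor gene Egr2 (chr10:67537749-67537848, plus), the calponin gene Cnn2 (chr10:79988480-79988579, plus) and the myosin light chain gene Myl9 (chr2:156775264-156775363, plus).
Srf: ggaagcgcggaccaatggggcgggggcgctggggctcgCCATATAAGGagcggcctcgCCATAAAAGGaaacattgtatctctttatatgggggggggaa
Actg1: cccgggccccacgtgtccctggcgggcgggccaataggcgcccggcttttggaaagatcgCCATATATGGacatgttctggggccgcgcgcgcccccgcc
Egr2: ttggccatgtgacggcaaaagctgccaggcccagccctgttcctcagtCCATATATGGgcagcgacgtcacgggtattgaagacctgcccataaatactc
Cnn2: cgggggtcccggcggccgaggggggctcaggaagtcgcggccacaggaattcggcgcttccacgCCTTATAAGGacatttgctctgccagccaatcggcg
Myl9: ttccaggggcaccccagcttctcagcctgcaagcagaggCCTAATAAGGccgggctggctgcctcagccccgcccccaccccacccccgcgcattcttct

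Dusp1 (chr17:26508573-26508652, minus), a MAP kinase phosphatase gene that fell, is shown for its cyclic AMP response element (CRE), the site of CREB and ATF factors. Bhlhe41 (chr6:145865561-145865640, minus) and Gadd45b (chr10:80929871-80929950, plus), which rose, are shown for the E-box of basic helix-loop-helix factors. Csf1 (chr3:107760580-107760659, minus) and Tnip1 (chr11:54962956-54963035, minus), whose later response was larger in WT, are shown for their NF-kB sites. The windows of Dusp1 and Actg1 also hold an E-box, and that of Myl9 an NF-kB site, left in lower case.
Dusp1: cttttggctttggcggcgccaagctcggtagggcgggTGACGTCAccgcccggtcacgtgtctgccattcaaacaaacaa
Bhlhe41: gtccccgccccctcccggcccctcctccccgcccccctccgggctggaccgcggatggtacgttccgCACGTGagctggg
Gadd45b: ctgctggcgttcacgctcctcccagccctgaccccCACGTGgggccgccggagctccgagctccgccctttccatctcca
Csf1: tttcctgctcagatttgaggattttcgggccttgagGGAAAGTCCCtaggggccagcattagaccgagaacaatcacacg
Tnip1: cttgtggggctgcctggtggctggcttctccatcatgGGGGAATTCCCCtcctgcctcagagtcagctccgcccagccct

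The libraries were first checked as a whole. KO totals were 13431600 counts at 15 min, 15402373 at 45 min and 12674536 at 60 min. Over all 8 libraries, 58.92% to 70.62% of counts fell on 3 gene models (Gm26917, Gm42418 and Malat1), which left 3948194 to 5644974 counts for the other genes. Levels below are CPM, counts scaled to the library size after TMM normalisation, on which a count of 3, the limit that a count of 0 allows, stands for 0.18 to 0.265 CPM. At the targeted loci, Rela had 306, 241, 291 and 324 counts in KO at 0, 15, 45 and 60 min and 324, 406, 704 and 589 in WT, and Rel had 478, 308, 538 and 633 in KO and 151, 173, 805 and 506 in WT. Exons were thus still read in KO. Which part of each gene was deleted is not stated in the sources used here, and these counts therefore check nothing about the labels. Fibroblast markers (10 of 10 detected) summed to 6010 to 8030 CPM in KO and neural markers to 105 to 121 CPM, and all 6 erythroid markers were at 0 there. No marker of any cell type was called, fibroblast included, but outside the fibroblast and the cartilage and bone markers few could be. The 20 counts that a call needs were reached by 2 of 14 macrophage and leukocyte markers and 2 of 8 endothelial ones. They were reached by 1 of 9 epithelial, 2 of 8 skeletal muscle and 3 of 8 neural markers. Of 10 cartilage and bone markers 6 reached them, and the 7 tested had a median log2 fold change of 0.48 in KO. The 0 min KO library stood apart: its cartilage and bone markers summed to 473 CPM, against 58.6 to 89.2 at the other KO times. The 60 min KO library stood apart from those of 15 and 45 min as well. Chi-square per degree of freedom over genes was 24.5 between 60 and 15 min and 21.4 between 60 and 45 min, but 9.54 between 15 and 45 min. Between the 60 and 0 min KO libraries it was 14.1, and between the WT libraries of 15 and 60 min 26.7. These values took in the 3 models above, so the share of those models is not a separate sign. The 60 min KO library had 63.41% of its counts on them, against 70.61% at 15 and 70.62% at 45 min. Without it 39 genes were called higher and 20 lower, against 72 and 52 with it.

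The genes that fell between 15 min and the later times were led by immediate early genes. Of 15049 genes, 52 fell, which is 0.346% (adjusted p under 0.05 in edgeR's quasi-likelihood test, with the rule on direction and counts). Their median log2 fold change was -1.47 (range -3.39 to -0.86), against 0 over all genes tested. Of the 25 genes on a list of immediate early transcription factors and their kin, 10 fell (Fos, Arc, Egr1, Srf, Nr4a1, Btg2, Egr3, Egr2, Ier2 and Jun) and 1 rose (Ier5l), with a list median of -1.17. These calls rest on the 15 min level. Against 0 min in place of 15 min, 2 of the 25 fell, and the values for Jun (0.86), Dusp1 (0.29) and Ier2 (0.0742) turned positive.

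Fos (chromosome 12, 85473890 to 85477273, mm10), which encodes an AP-1 subunit, had 300 counts in KO at 0 min, 866 at 15 min, 124 at 45 min and 64 at 60 min. These are 17.95, 76.5, 9.86 and 4.81 CPM. The 15 min library was far above the others, and both later libraries were below the 0 min library. The log2 fold change of the later times against 15 min was -3.39 ± 0.28 (standard error), adjusted p = 0.000233, or 10.5-fold lower. Jun (chromosome 4, 95049034 to 95052222), the partner of Fos in AP-1, went from 234.7 CPM at 15 min to 130.1 and 78.8, a change of -1.17 ± 0.24 (adjusted p = 0.0448). Unlike Fos, it stayed above its 0 min level of 57.7 CPM at both later times. Without the 60 min KO library Jun was not called. Junb (-1.20 ± 0.28, adjusted p = 0.0718) and Atf3 (-0.85 ± 0.30, adjusted p = 0.22) did not pass the threshold.

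The Egr genes encode zinc finger transcription factors that are textbook targets of SRF. Egr1 (chromosome 18, 34859823 to 34864984) was at 81.4 CPM at 0 min, 215.5 at 15 min, 63.4 at 45 min and 29.6 at 60 min, and fell by 2.21 ± 0.32 on the log2 scale (adjusted p = 0.0111). Egr3 went from 26.4 CPM at 15 min to 8.82 and 6.01 (-1.83 ± 0.25, adjusted p = 0.00814), and Egr2 from 34.3 to 14.1 and 5.33 (-1.83 ± 0.35, adjusted p = 0.0377). All 3 were lower at 60 than at 45 min beyond counting error, by -1.10, -0.55 and -1.40 on the log2 scale. Arc, a synaptic protein gene that also answers serum in fibroblasts, had 147, 555, 138 and 86 counts in order of time and fell by 2.49 ± 0.25 (adjusted p = 0.000849). Nr4a1, an orphan nuclear receptor gene, went from 79.1 CPM to 27.3 and 13.1 (-1.97 ± 0.29, adjusted p = 0.0111). Btg2, an antiproliferative gene, went from 203.4 CPM to 62.5 and 44.4 (-1.93 ± 0.23, adjusted p = 0.0031). In each of these the 15 min library stood alone above both later ones.

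**Figure D1:**
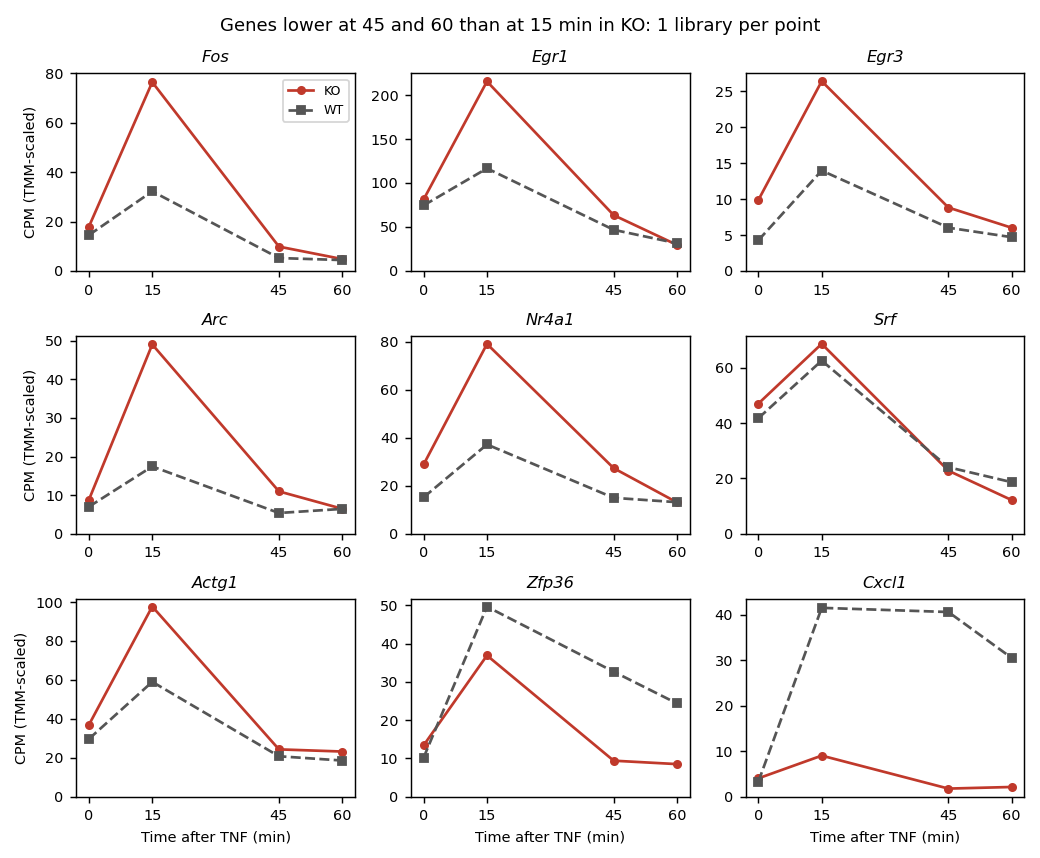
TMM-scaled CPM (y axis, linear, from 0) against time after TNF in minutes (x axis) for 9 genes that were lower at 45 and 60 than at 15 min in KO. Each point is 1 library (red circles KO, grey squares WT), so there is no error bar. Fos in KO peaks at 76.5 CPM at 15 min and is at 4.81 at 60 min, whereas Cxcl1 in KO stays at or below 9.01 CPM while WT reaches 41.5.

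The gene of SRF and a few genes of the actin cytoskeleton also fell. Srf (chromosome 17, 46546839 to 46556162) was at 47.1 CPM at 0 min, 68.7 at 15 min, 22.8 at 45 min and 12.2 at 60 min (-1.98 ± 0.27, adjusted p = 0.00912). Actg1 (chromosome 11, 120345690 to 120348542) had 616, 1106, 305 and 308 counts and fell by 2.04 ± 0.17 (adjusted p = 0.000233). The levels of Actg1 at 45 and 60 min, 24.2 and 23.1 CPM, could not be told apart within counting error, whereas Srf was lower at 60 than at 45 min beyond it. Ccn1, a secreted matrix protein gene known as an SRF and YAP target, went from 402.5 CPM to 163.8 and 67.4 (-1.80 ± 0.35, adjusted p = 0.0391). On the list of contractile and YAP or SRF targets 2 of 17 fell, Actg1 and Ccn1, and none rose, with a median of -0.45 and 6 of the 17 above 0. Tagln (-1.20), Cnn1 (-1.35) and Acta2 (-1.07) did not pass. Outside that list, Myl9 (-1.41), Myl12a (-1.08), Cnn2 (-1.47) and Tgfb1i1 (-1.117), which encode myosin light chains, a calponin and a focal adhesion protein, were also called lower, while the caldesmon gene Cald1 was called higher (0.83, adjusted p = 0.0498). These 5 were picked out after their values were seen.

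Single genes of other lists fell as well. Dusp1, the phosphatase that switches off p38 and JNK, went from 88.3 CPM at 15 min to 35.2 and 22.7 (-1.61 ± 0.25, adjusted p = 0.0134), and was the 1 of 17 MAP kinase feedback genes called, on a list with a median of 0.07. Zfp36, which encodes the mRNA decay factor tristetraprolin, had 224, 418, 118 and 113 counts (-2.05 ± 0.21, adjusted p = 0.000929). Of 10 mRNA decay genes it was the 1 that fell, while Noct rose, and the list median was 0.31. Ppp1r15a, which directs dephosphorylation of eIF2-alpha, went from 42.5 CPM to 21.9 and 13.3 (-1.27 ± 0.26, adjusted p = 0.0429). Its call was lost in 6 of 21 alternatives, among them limma-voom, the 0 min baseline and the fit without the 60 min KO library. The protease gene Adamts1 went from 336.7 CPM to 153.6 and 114.4 (-1.33 ± 0.21, adjusted p = 0.0142). Apol8, an apolipoprotein L gene, had 33 counts at 0 min, 182 at 15 min, 28 at 45 min and 22 at 60 min (-3.05 ± 0.30, adjusted p = 0.000849), so its level at 15 min alone was high. DESeq2 in place of edgeR ended the calls of Jun, Egr1, Nr4a1, Ccn1 and Apol8.

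The genes that fell were also set beside the 0 min KO library. In 51 of the 52 the 15 min level was above the 0 min level, and in 43 both later levels were below the 0 min level. The same shares over all genes tested were not counted. Choosing genes for a fall from 15 min favours a high 15 min library, and the 0 min library stood apart, so these counts are given as a description. Between 45 and 60 min, 28 of the 52 fell further beyond counting error (exact 95% interval), 1 rose and 23 could not be told apart. Over all genes with 20 counts, 13.6% fell and 15.0% rose between those libraries. The 1 that rose was Boc, a hedgehog co-receptor gene, at 33.1 and then 38.1 CPM, after 66.0 at 15 min.

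The genes that rose made a more mixed group. They numbered 72, or 0.478% of genes tested, with a median log2 fold change of 1.36 (range 0.83 to 4.43). Klf10 (chromosome 15, 38294413 to 38300707), a Krüppel-like repressor induced early by TGF-beta, had 117 counts at 0 min, 101 at 15 min, 820 at 45 min and 626 at 60 min. The first 2 libraries were low, at 7.001 and 8.92 CPM, the 45 min library was highest at 65.2 CPM, and the 60 min library lay below it at 47.0 CPM. The log2 fold change was 2.65 ± 0.25 (adjusted p = 0.000765), or 6.28-fold. Of 13 Krüppel-like factor genes, Klf10 and Klf13 rose (Klf13 from 22.1 to 62.7 and 66.2 CPM, 1.55 ± 0.22, adjusted p = 0.00989). The other members spread around 0, with a list median of 0.16, and included Klf6 (-0.80) and Klf4 (-0.27).

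Regulators of stress and growth arrest moved both ways. Nuak2 (chromosome 1, 132316126 to 132333488), an AMPK-related kinase gene, had 130, 96, 501 and 490 counts in order of time (2.17 ± 0.22, adjusted p = 0.000849), and its levels at 45 and 60 min could not be told apart. Gadd45b, a stress sensor that restrains apoptosis and is known as an NF-kB target, went from 8.39 CPM at 15 min to 33.9 and 21.7 in KO (1.73 ± 0.28, adjusted p = 0.0172). It thus rose without RelA and cRel, and was lower again at 60 than at 45 min. With Ppp1r15a, which fell, these were the 3 called of 20 genes on that list, whose median was 0.12.

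Transcription factor genes outside those families also rose. Snai1, a repressor of epithelial genes, went from 4.59 CPM to 19.1 and 13.5 (1.82 ± 0.32, adjusted p = 0.0225). Bhlhe40 went from 20.2 CPM to 78.3 and 50.1 (1.67 ± 0.26, adjusted p = 0.0146) and Bhlhe41 from 14.1 to 40.4 and 37.8 (1.47 ± 0.22, adjusted p = 0.0115). Both encode repressors that act on clock genes through the E-box, and they were the 2 called of 19 clock genes. Nfatc1, a calcium-regulated factor gene, went from 7.33 CPM to 17.3 and 26.0 (1.56 ± 0.27, adjusted p = 0.0223), and the forkhead gene Foxs1 from 0.353 to 2.86 and 2.40 (2.86 ± 0.57, adjusted p = 0.0415).

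**Figure D2:**
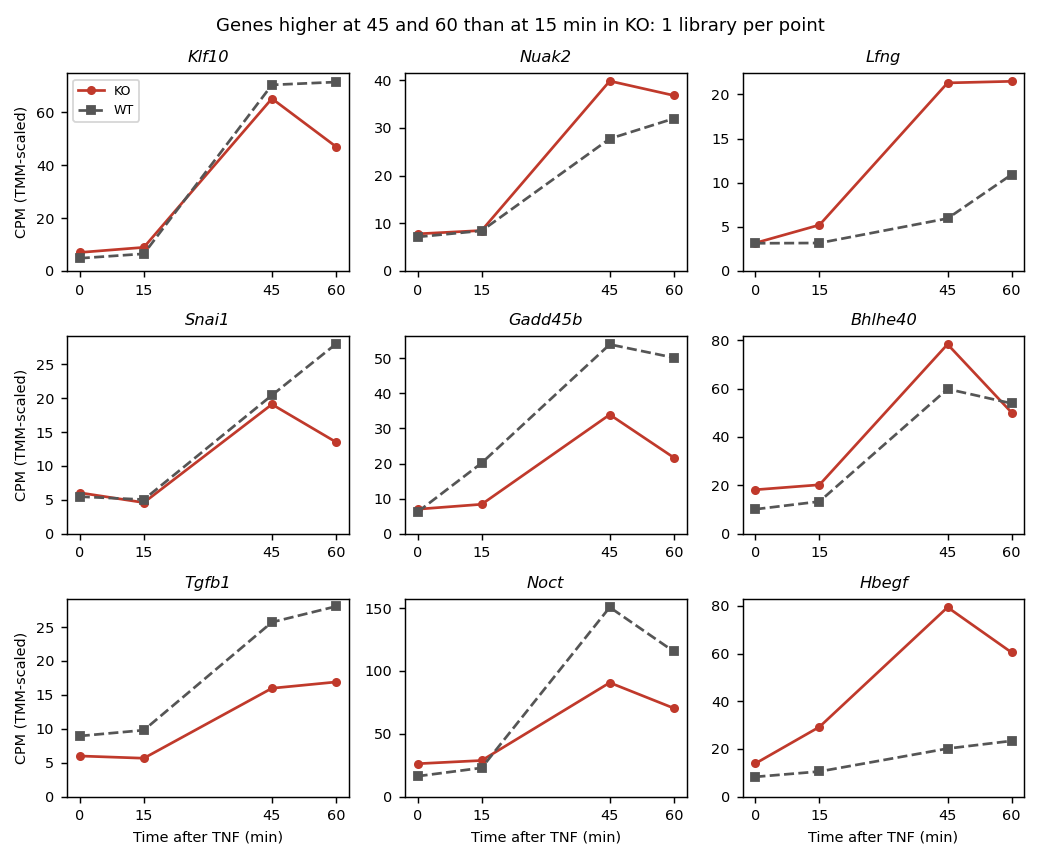
TMM-scaled CPM (y axis, linear, from 0) against time after TNF in minutes (x axis) for 9 genes that were higher at 45 and 60 than at 15 min in KO, with 1 library per point (red circles KO, grey squares WT) and no error bar. Klf10 in KO goes from 8.92 CPM at 15 min to 65.2 at 45 min. Hbegf is higher in KO than in WT at every time.

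Signalling genes that rose came from several pathways, with few members each. Lfng (chromosome 5, 140607320 to 140615545), a sugar transferase that tunes Notch receptors, had 53, 59, 268 and 286 counts (2.04 ± 0.34, adjusted p = 0.0191) and was the 1 of 18 Notch genes called. Hbegf, a ligand of the EGF receptor, had 232, 331, 999 and 805 counts (1.26 ± 0.21, adjusted p = 0.0223) and was the 1 called of 17 growth factor genes. Only 13 of the 18 Notch genes and 13 of the 17 growth factor genes reached the 20 counts that a call needs. Of 24 BMP and TGF-beta genes 3 rose and none fell. These were the ligand gene Tgfb1 (5.65 to 16.0 and 16.9 CPM, 1.54 ± 0.23, adjusted p = 0.0134), the co-repressor gene Tgif2 (1.42 ± 0.27, adjusted p = 0.0377) and the inhibitory SMAD gene Smad7 (54.0 to 127.3 and 94.6 CPM, 1.04 ± 0.21, adjusted p = 0.0429). Without the 45 min KO library Tgif2 and Smad7 lost the call, and Tgif2 also without the 60 min KO library and under DESeq2, whereas Tgfb1 kept it in each of these. Noct, on the mRNA decay list, a circadian phosphatase of the deadenylase family, went from 28.7 CPM to 90.7 and 70.4 (1.49 ± 0.23, adjusted p = 0.0141). The matrix gene Tnc, with 8356, 21746 and 19559 counts at 15, 45 and 60 min, rose by 1.115 ± 0.19 (adjusted p = 0.0225).

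Genes of metabolism were among the rest. Of 24 cholesterol genes, Mvd (4.15 to 12.6 and 10.5 CPM, 1.47 ± 0.29, adjusted p = 0.0426) and Lss (40.2 to 70.3 and 79.2 CPM, 0.89 ± 0.18, adjusted p = 0.0415) rose. Both encode enzymes of sterol synthesis. Both calls were lost without the 60 min KO library and under limma-voom, that of Mvd also without the 45 min KO library and under DESeq2, and that of Lss also with total counts. In all 22 of the 24 were above 0, with a median of 0.49, but Hmgcs1 (0.69 ± 0.17, adjusted p = 0.0876), which encodes an early enzyme of the pathway, did not pass. Scaling by total counts in place of TMM moved the median of all genes by 0.13, to be set beside list medians of this size. The glycolytic genes Hk2 (17.0 to 36.9 and 38.2 CPM) and Pfkfb3 (13.2 to 32.8 and 33.4 CPM) also rose, by 1.15 ± 0.20 and 1.33 ± 0.20 (adjusted p = 0.0223 and 0.0111), as did Ndrg1, a gene known to answer low oxygen (9.36 to 25.5 and 38.8 CPM, 1.78 ± 0.28, adjusted p = 0.0159). These 3 were picked out after their values were seen.

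Leaving out genes whose mean was below 20 counts, several of the highest fold changes rested on few reads, though that of Klf10 (2.65) did not. Tmem200b had 25, 2, 32 and 27 counts in order of time (3.63 ± 0.67, adjusted p = 0.032), so its rise rests on the 2 counts at 15 min. Tmem200b, Foxs1, Ifitm10 (2.41), Lrrc75b (2.23), Tigd5 (2.14) and the transcribed serpin pseudogene Serpina3h (1.86) each lost the call without either the 45 or the 60 min KO library, and under DESeq2. BC030343 (2.07 ± 0.28, adjusted p = 0.00814) kept its call in both cases, and Prr5l (1.79), whose product binds mTORC2, lost it without the 60 min library. At the edge of the threshold, Pqlc1 (0.94) and Cald1 (0.83) lay inside at an adjusted p of 0.0498, and the Ras pathway inhibitor gene Spry2 (-1.07) and Rpl10 (-0.89) outside at 0.0504.

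All 72 genes that rose were above the 0 min KO level at both later times, and in 30 of them the 15 min level was below that of 0 min. Choosing genes for a rise from 15 min favours a low 15 min library and high later ones. The 0 min library also stood apart, and the same shares over all genes tested were not counted, so these counts are given as a description. Between 45 and 60 min, 15 rose further beyond counting error, 11 came down and 46 could not be told apart. Over all genes with 20 counts, 15.0% rose and 13.6% came down between those libraries, so these counts are a description. The 11 include Klf10, Snai1, Gadd45b, Bhlhe40, Noct, Hbegf and Smad7, and the 15 include Nfatc1, Ndrg1 and Prr5l. A rule of size with no test, at least 2-fold at each later time with an exact interval that leaves out 1 and 20 counts in the highest library, was met by 202 higher genes (1.34%) and 120 lower genes (0.797%). It was met by 54 of the 72 and 36 of the 52.

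**Figure D3:**
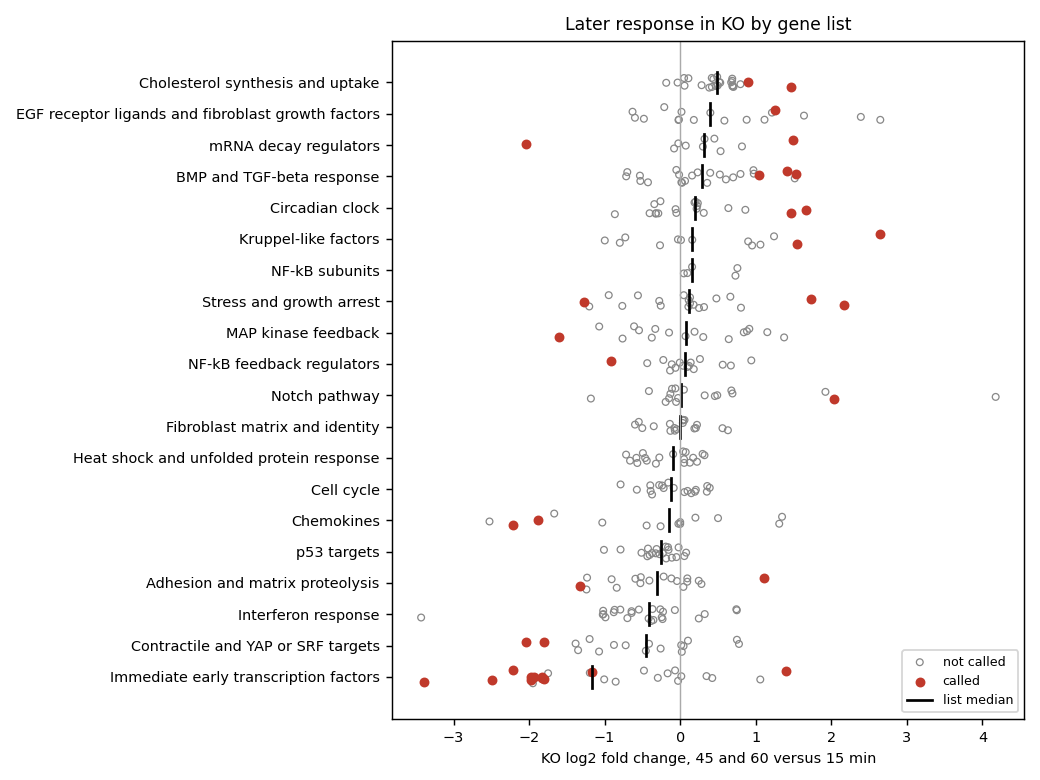
Log2 fold change in KO of 45 and 60 against 15 min (x axis) for the tested members of 20 gene lists (rows), with called genes in red, other genes as open circles and the list median as a black bar. The immediate early list lies lowest, with a median of -1.17 and 10 of 25 genes called lower, and the cholesterol list highest, with a median of 0.49.

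Genes of the NF-kB response were described in the same way. Calls were rare in KO (0.478% of all genes higher and 0.346% lower, against 3.21% and 0.857% in WT), so a list of this size with no call there does not stand out. None of the 5 subunit genes was called in KO: Nfkb2 was at 0.76 ± 0.18 (adjusted p = 0.0769), Rel at 0.73 ± 0.25 (adjusted p = 0.207), Rela at 0.16 ± 0.19, Relb at 0.10 ± 0.20 and Nfkb1 at 0.05 ± 0.18. In WT 4 of these 5 were called higher, and the list median was 1.92, against 0.16 in KO. Of 16 feedback regulators, none rose in KO and 10 rose in WT, with medians of 0.07 and 1.24. Nfkbia, which encodes the inhibitor IkB-alpha, had 178, 121, 169 and 135 counts in KO (0.14 ± 0.25) and 204, 1916, 3264 and 2527 in WT. Tnfaip3, the gene of the inhibitor A20, had 42, 22, 51 and 29 counts in KO (0.67 ± 0.49). The atypical IkB gene Nfkbiz fell in KO, from 76.1 CPM to 43.2 and 37.6 (-0.91 ± 0.18, adjusted p = 0.0429), and lost this call without the 60 min KO library.

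Of 14 chemokine genes tested 2 fell in KO and none rose, but only 7 reached the 20 counts in KO that a call needs. Cxcl1, a neutrophil attractant gene, had 67, 102, 22 and 28 counts in KO (-2.22 ± 0.29, adjusted p = 0.00791) and 49, 577, 567 and 422 in WT, where it held most of its 15 min level (-0.22, not called). The difference between genotypes for Cxcl1, -1.99 ± 0.36, missed the threshold at an adjusted p of 0.0728. Cxcl5 had 103, 95, 23 and 36 counts in KO (-1.88 ± 0.33, adjusted p = 0.0225), and the call was lost without the 45 min KO library. In WT 6 of the 14 chemokine genes were called higher. None of 25 interferon response genes was called in KO (median -0.42, 21 below 0) and 5 rose in WT. Lists with no call in KO were also those of p53 targets (20 genes, median -0.25), heat shock and unfolded protein genes (19, -0.09), fibroblast matrix (18, -0.01) and cell cycle (18, -0.12).

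The same contrast in WT called 483 genes higher (3.21%) and 129 lower (0.857%). Its fold changes use no KO library, but all 8 libraries set the spread in 1 fit, so the calls in KO and WT are not independent. With the WT libraries fitted alone, 982 were higher and 512 lower. All 72 genes that rose in KO had a WT log2 fold change above 0 (median 1.22, range 0.06 to 3.45), against 50.0% of all genes, and 55 were called in WT. That is 76.4% of the KO list and 11.4% of the WT list. Of the 52 that fell in KO, 50 were below 0 in WT (median -0.94), and 30 were called, which is 57.7% of the KO list and 23.3% of the WT list. No gene was called in opposite directions. Klf10 was at 3.45 in WT against 2.65 in KO, Nuak2 at 1.82 against 2.17, Fos at -2.74 against -3.39 and Actg1 at -1.59 against -2.04. None of the 124 was called as different between the genotypes, which does not show that they moved alike. For Klf10 the difference of KO minus WT was -0.80 ± 0.34, for Noct -1.06 ± 0.31 and for Zfp36 -1.25 ± 0.30. The 2 genes that fell in KO but lay above 0 in WT were mt-Nd6, encoded on the strand opposite to most mitochondrial genes (-1.25 in KO, 0.60 in WT, difference -1.85 ± 0.33, adjusted p = 0.0728) and Ssbp3 (0.01 in WT, difference -1.01 ± 0.29, adjusted p = 0.401).

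**Figure D4:**
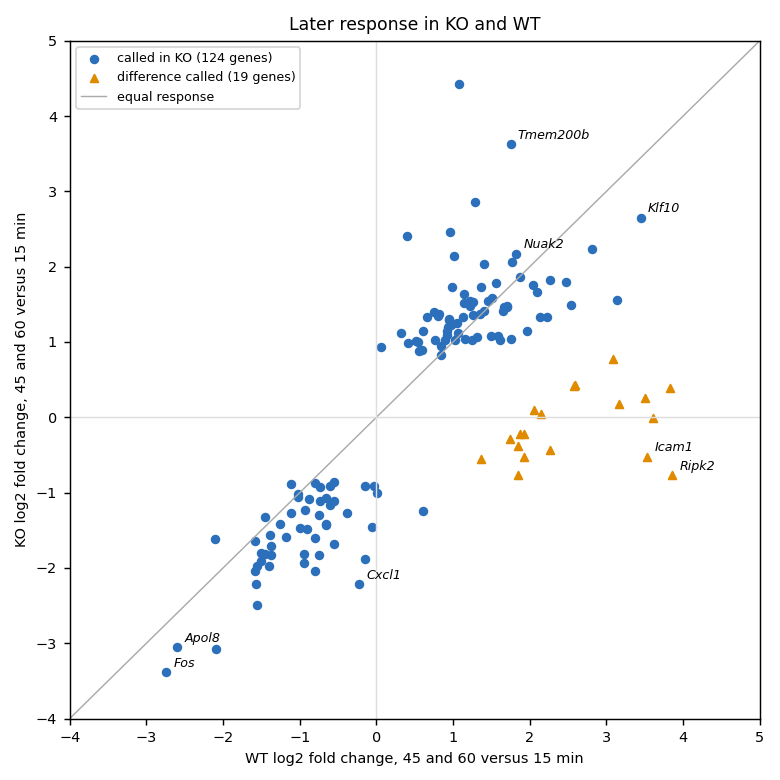
Log2 fold change of 45 and 60 against 15 min in KO (y axis) against the same in WT (x axis). Blue circles are the 124 genes called in KO, orange triangles the 19 genes whose response differed between genotypes, and the grey diagonal marks equal responses. The orange points lie between 1.36 and 3.86 in WT and between -0.77 and 0.77 in KO.

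A test of the difference itself called 19 genes (0.126%) with a larger later response in WT and 0 with a larger one in KO (edgeR quasi-likelihood test). At an unadjusted p under 0.05 the numbers were 600 and 248. Against 0 min in place of 15 min they were 74 and 1, without the 45 min WT library 77 and 3, and without the 60 min WT library 65 and 3. The lead gene was Ripk2, a kinase gene of bacterial sensing, with 77, 53 and 50 counts in KO at 15, 45 and 60 min and 150, 2458 and 1903 in WT. Its log2 fold change was -0.77 ± 0.27 in KO (adjusted p = 0.213) and 3.86 ± 0.24 in WT, a difference of -4.63 ± 0.35 (adjusted p = 0.000175). The adhesion genes Icam1 (78, 68 and 56 counts in KO against 109, 1204 and 1314 in WT) and Vcam1 (502, 444 and 350 against 1403, 6154 and 4525) showed the same split. So did Csf1, the macrophage growth factor gene, with 820, 1061 and 1063 counts in KO and 1455, 12164 and 13844 in WT. Feedback genes called included Birc3, Tnip1 and Nfkbie, and the subunit genes called were Nfkb1 and Relb. Tnfaip2 was called as well. Macrophage and leukocyte markers moved with genotype too: 14 genes summed to 7.31 to 9.36 CPM in KO, with C1qa and Tyrobp at 0 after TNF, and to 74.0 to 102 CPM in WT. Their part in the genotype difference was not tested.

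**Figure D5:**
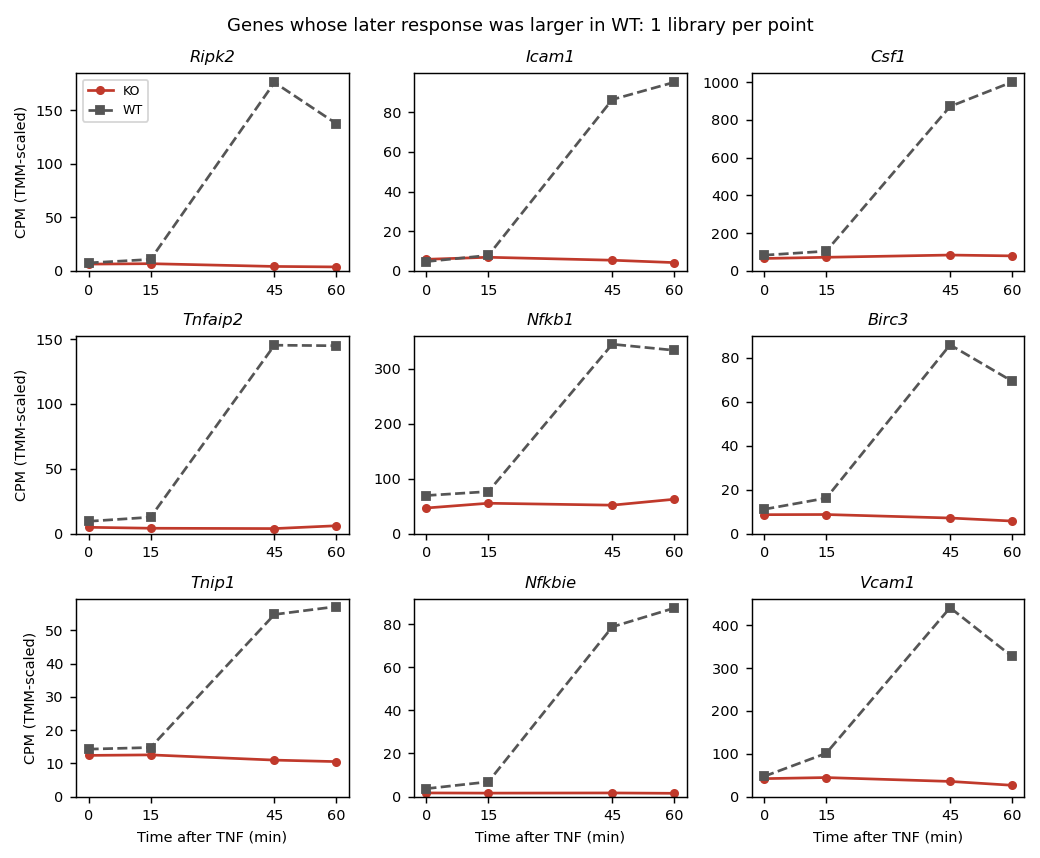
TMM-scaled CPM (y axis, linear, from 0) against time after TNF in minutes (x axis) for 9 of the 19 genes whose later response was larger in WT, with 1 library per point (red circles KO, grey squares WT) and no error bar. Ripk2 in WT goes from 10.8 CPM at 15 min to 176.1 at 45 min, while in KO it stays between 3.76 and 6.80 CPM.

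Promoter letters were then counted in the RefSeq windows from 250 bases before to 50 bases after each start, on both strands. Such windows were found for 39 of the 72 genes that rose, 37 of the 52 that fell, 14 of the 19 with a larger WT response and 10359 of 15047 tested symbols. The motifs were chosen with the called genes in view, so the shares are descriptions. A CArG box was in 21.6% of the genes that fell (Srf, Actg1, Egr2, Cnn2, Myl9, Zfp36, Lurap1l and Tada3), in none of those that rose and in 1.55% of all. The CRE (TGACGTCA) was in 8.11% of those that fell (Dusp1, Btg2 and Ppp1r15a), in none that rose and in 3.56% of all. The E-box (CACGTG) was in 28.2% of those that rose, 11 genes with Lfng, Gadd45b, Bhlhe41, Sphk1 and Pfkfb3 among them, in 10.8% of those that fell and in 11.7% of all. An NF-kB site was in 42.9% of the genes with a larger WT response (6 of 14, among them Csf1, Tnip1 and Nfkbie), in 12.8% of those that rose, 21.6% of those that fell and 12.5% of all. The AP-1 site (TGANTCA) was in 10.3% of those that rose, 8.11% of those that fell and 6.12% of all, and the sterol element (TCACNCCA) in 5.13%, 5.41% and 4.55%. Genes with several starts have more windows, on average 1.49 for those that rose, 1.38 for those that fell and 1.28 for all.

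The called genes also differed from all genes tested in median span and GC content, with no test of the difference. Genes that fell spanned a median of 7847 bases and those that rose 14820, against 20090 over all genes tested. Their median GC content was 54.12% and 52.44%, against 49.48%. These medians take in gene models as well as named genes. Of the 124, 18 were gene models without a name of their own or intronic transcripts, 12 higher and 6 lower. Of these, 13 overlapped a named gene, and 10 lay inside one on the same strand. All 10 had the sign of that gene, and in 2 the gene was called too: Gm38357 (1.33) in Noct (1.49) and Gm43119 (1.58) in Mn1 (1.30). Gm38034 (1.76) lay in Foxo1 (1.30, adjusted p = 0.0655), the gene of a forkhead factor. The model with the highest fold change, Gm43775 (4.43 ± 0.80, adjusted p = 0.0272) inside Rbm47, had 1 count at 15 min, 26 at 45 min and 28 at 60 min. Reads of such models cannot be told apart from unspliced transcripts of the gene around them.

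The number of calls depended on which libraries set the spread between times. The 45 and 60 min libraries are different times, not replicates, and the p-values treat the gap between them as error. Without the 60 min KO library 39 genes rose and 20 fell, without the 45 min WT library 215 and 148, and without the 60 min WT library 296 and 193, with all 72 and all 52 genes among the calls in the latter cases. With no filter on low counts, none rose and none fell, although 1239 and 962 passed an unadjusted p under 0.05, and DESeq2 called 60 and 29. Higher genes made up 58.1% of the calls in KO and 78.9% in WT, and with scaling by total counts 74.3% (110 higher and 38 lower) and 89.2% (429 and 52).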

How the data were processed

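Chromatin-associated RNA was depleted of ribosomal RNA and sequenced from stranded libraries on 1 end, per the labels' protocols. The submitters' processing notes name cutadapt 1.12, STAR, featureCounts 1.5.0, DESeq2 and the build mm10. The file as deposited holds raw counts for each gene and library, per the file headers. The sources used here do not give the annotation release, the strand setting or the handling of reads with several hits. Overlapping genes and genes with near-identical copies (Actg1, Serpina3h, H2-K1) are therefore uncertain. Of 45706 rows, 98.77% had a symbol by identifier.

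The 15049 genes that reached 10 counts in 2 or more libraries were tested with edgeR 4.0.16 (R 4.3.3, quasi-likelihood, TMM factors 0.817 to 1.21). All 8 libraries entered, with 45 and 60 min pooled within genotype and 2 residual degrees of freedom. A call needed an adjusted p under 0.05 over all genes, 1 direction at 45 and 60 min and at least 20 counts in the highest of the 3 libraries. For the difference between genotypes no direction rule was set. Standard errors are the log2 fold change over the square root of F. Ratios between 2 libraries carry exact 95% intervals for counting error only, since PCR reads are not independent molecules. No pair of libraries was a duplicate (chi-square per degree of freedom 8.07 to 53.8). Nothing says that libraries came from separate cultures or animals, so the spread may be technical.

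Genes, lists and motifs were chosen with earlier results of these data known. Named genes are the 12 called genes highest and the 12 lowest by fold change with a mean of at least 20 counts, without gene models. They also include called members of each list (up to 4 a direction), a set of TNF and immediate early genes, the 6 genes leading the genotype difference and the NF-kB subunits. Others are named for counts or shared features. List counts stand beside those of all genes, with no test of the list. Alternatives were DESeq2 1.42.0, limma-voom (limma 3.58.1), other scalings, filters, baselines and thresholds. Each library was also left out in turn, with 1 exception. The KO library that serves as the baseline of the contrast, on which every KO call rests, was not left out. The scripts were tested on simulated counts. Figures used matplotlib 3.10.9.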

Additional observations from a re-analysis of the deposited data

Results flagged for a closer look

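The later response differed between genotypes, by a test of the difference itself, for 19 genes, each with a larger rise in WT (edgeR quasi-likelihood test). The differences below are KO minus WT log2 fold changes of 45 and 60 against 15 min. Largest in size were those of Ripk2, -4.63, and the adhesion gene Icam1, -4.05. The adhesion gene Vcam1 stood at -2.45. Among genes of NF-kB signalling and its feedback the differences were -3.61 for Nfkbie, -2.70 for Birc3, -2.15 for Tnip1, -2.10 for Nfkb1 and -1.96 for Relb. Tnfaip2 stood at -3.25. The growth factor gene Csf1 stood at -2.98 and the kinase gene Map3k8 at -2.22. Genes of class I antigen presentation were H2-K1 at -2.61 and Tapbp at -2.04. The others were Stx11 at -3.44, Gfpt2 at -2.32, Optn at -2.17, Klhl25 at -2.15, Camkk2 at -2.10 and Gsap at -1.91. Ripk2, Icam1 and Csf1 kept this call under each of the 19 alternatives that gave a value, and all 19 genes kept the sign.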

How the results depend on the processing

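The design has 1 library per genotype and time, and the gap between 45 and 60 min stands in for error. No paired analysis was possible because the labels give 1 library per group and no replicate numbers. Of the 44 named genes called in KO, 41 kept their sign in all 21 alternatives with a value. None kept the call with no filter on low counts, where 25609 genes were tested and the smallest adjusted p was 0.0507. Klf10, Nuak2, BC030343, Fos and Srf lost the call there alone.

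Genes higher in KO numbered 72. The count was 110 with total counts, 0 with no filter, 37 with limma-voom, 197 against 0 min, 696 against 0 and 15 min together and 4 against a 1.5-fold threshold (glmTreat). Leaving out 1 library gave 39 (without KO 60 min) to 296 (without WT 60 min). Genes lower numbered 52. The count was 29 with DESeq2, 91 with total counts without the 3 largest genes, 0 with no filter, 28 with limma-voom, 427 against both baselines, 10 with glmTreat and 20 to 193 without those same libraries. The share of higher genes among the calls was 58.1%, 74.3% with total counts and 28.6% with glmTreat. Immediate early genes lower numbered 10, but 6 with DESeq2, 0 with no filter, 2 against 0 min, 3 against both baselines and 5 with glmTreat. Jun (0.86), Dusp1 (0.29) and Ier2 (0.0742) changed sign against 0 min.

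In WT, 483 genes were higher. The count was 272 with DESeq2, 126 with no filter, 982 with only that genotype fitted, 1074 against both baselines and 169 with glmTreat. The 129 lower became 38, 8, 512, 564 and 11 in these, 52 with total counts, 206 without the 3 largest genes and 196 against 0 min, and 103 to 225 with 1 library left out (225 without WT 45 min). The WT share higher was 78.9%, 89.2% with total counts, 94.0% with no filter, 93.9% with glmTreat and 65.7% with that genotype alone. The 19 differences larger in WT became 40 with total counts, 3 with no filter, 12 with limma-voom, 74 against 0 min, 179 against both baselines, 11 with glmTreat and up to 77 without WT 45 min. Those larger in KO numbered 0, 1 against 0 min, 19 against both baselines and 3 without WT 45 or WT 60 min. Fewer samples or genes tested change the adjustment by construction, and otherwise the cause was not tested. Genes near 20 counts are limited by depth.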

Other observations

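Some of the genes called have roles that the lists did not cover. Rara, the retinoic acid receptor alpha gene, rose in KO from 20.4 CPM at 15 min to 48.6 and 45.4 (1.20 ± 0.19, adjusted p = 0.0172), and Ets1, an ETS factor gene, from 38.9 to 78.0 and 80.4 (1.02 ± 0.19, adjusted p = 0.0313). The hyaluronan receptor gene Cd44 went from 60.0 CPM to 143.2 and 109.6 (1.08 ± 0.21, adjusted p = 0.0406), and the phosphate carrier gene Slc20a1 from 87.3 to 190.3 and 183.6 (1.10 ± 0.19, adjusted p = 0.0218). Sphk1, which makes sphingosine 1-phosphate, went from 7.77 CPM to 22.8 and 20.4 (1.48 ± 0.23, adjusted p = 0.0159). Il1rl1, the interleukin 33 receptor gene, went from 21.99 CPM to 48.0 and 44.3 (1.07 ± 0.21, adjusted p = 0.0395). Each was higher in both later KO libraries than at 0 or 15 min. Among genes that fell, Adm, the gene of the vasodilator adrenomedullin, had 96, 124, 53 and 43 counts (-1.56 ± 0.29, adjusted p = 0.036), and Carmn, a smooth muscle long noncoding RNA, went from 136.3 CPM to 71.6 and 57.5 (-1.08 ± 0.22, adjusted p = 0.0452). These genes were chosen after their values were seen.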
